A study of Mus musculus with 11 samples.

Results

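The genes described here were chosen for digestive enzymes of the exocrine pancreas other than its serine proteases. The amylase gene is Amy1, a close copy of the pancreatic Amy2a genes. The others are the lipases and lipase partner Pnlip, Pnliprp1, Pnliprp2, Clps and Cel, the carboxypeptidases Cpa1 and Cpb1, and the ribonuclease Rnase1. Every probe set annotated to 1 of these 9 genes alone was taken, which gave 10 of the 45101 probe sets on the array. They cover 8 of the 9 genes, out of 18194 genes with a probe set of their own, and Pnliprp2 and Clps have 2 each. No probe set is named Pnlip in the annotation used here, so the main pancreatic triglyceride lipase has no value below. All 10 probe sets passed the filter on dim values, a mean log2 signal over the arrays above 6.87.

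RNA of whole pancreas from female Balb/C mice aged 30 days was measured on 11 Affymetrix arrays. Their dams ate food with 20% protein (control) or 8% protein (low protein) while pregnant, and every dam ate the control food once the pups were born. The pups received streptozotocin (STZ, a toxin taken up by the insulin-producing beta cells), at 35 mg per kg of body weight, or vehicle (sham), once a day on days 1 to 5 of life. There were 3 arrays each for sham and STZ pups of low protein dams and for sham pups of control dams, called low protein sham, low protein STZ and control sham below. The control STZ group had 2 arrays, numbered 1 and 3, and its number 2 was not analysed here. The labels call the arrays biological replicates but do not tie them to dams or litters, so the p-values measure the spread between these samples, and a difference between litters cannot be told apart from one of diet.

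Acinar cells make up most of the pancreas and secrete digestive enzymes into the gut. Amylase cuts starch. Pancreatic lipase needs colipase, the product of Clps, to work on fat droplets in the presence of bile salts, while Cel encodes the bile salt-dependent lipase that also cleaves cholesterol esters. Pnliprp1 and Pnliprp2 encode relatives of pancreatic lipase, of which the second is known for the cleavage of galactolipids and phospholipids. Carboxypeptidases A1 and B1 remove the last amino acid from peptides that trypsin, chymotrypsin and elastase release, A1 preferring hydrophobic residues and B1 basic ones, and ribonuclease 1 degrades RNA. Transcription of such genes in acinar cells depends on PTF1, a complex of the E-box factor Ptf1a, a partner E protein and Rbpjl, which binds a paired E box and TTTCCC element.

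The stretch before the transcription start is shown for 1 or 2 genes of each enzyme class, because these genes varied together across the arrays. The 250 bases come from RefSeq promoters on build GRCm38.p6, written 5′ to 3′ on the strand of the gene, and 8 of the 9 genes had an entry. Capitals mark the E box CACCTG, the Rbpjl-type element TTTCCC and the TATA motif TATAAA on either strand, so CAGGTG is the E box read from the other strand. The element TTTCCC reads GGGAAA from that side. The Amy1 stretch is chr3:113574763-113575012 (minus strand), the downstream one of 2 annotated starts, Cel is chr2:28563404-28563653 (minus), Cpa1 is chr6:30638968-30639217 (plus), Cpb1 is chr3:20275734-20275983 (minus) and Rnase1 is chr14:51146768-51147017 (minus).
Amy1: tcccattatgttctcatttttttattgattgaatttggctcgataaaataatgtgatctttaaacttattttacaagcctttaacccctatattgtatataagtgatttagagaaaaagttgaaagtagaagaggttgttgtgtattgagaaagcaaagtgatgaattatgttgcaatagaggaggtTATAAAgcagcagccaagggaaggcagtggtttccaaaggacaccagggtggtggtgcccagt
Cel: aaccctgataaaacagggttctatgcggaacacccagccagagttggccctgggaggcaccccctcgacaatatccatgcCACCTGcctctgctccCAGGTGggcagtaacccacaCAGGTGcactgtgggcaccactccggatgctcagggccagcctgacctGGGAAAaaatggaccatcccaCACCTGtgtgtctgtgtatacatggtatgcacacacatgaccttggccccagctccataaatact
Cpa1: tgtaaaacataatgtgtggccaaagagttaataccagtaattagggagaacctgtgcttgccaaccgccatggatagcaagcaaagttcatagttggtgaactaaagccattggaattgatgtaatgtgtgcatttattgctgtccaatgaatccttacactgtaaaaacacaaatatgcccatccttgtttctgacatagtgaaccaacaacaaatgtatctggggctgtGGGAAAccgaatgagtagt
Cpb1: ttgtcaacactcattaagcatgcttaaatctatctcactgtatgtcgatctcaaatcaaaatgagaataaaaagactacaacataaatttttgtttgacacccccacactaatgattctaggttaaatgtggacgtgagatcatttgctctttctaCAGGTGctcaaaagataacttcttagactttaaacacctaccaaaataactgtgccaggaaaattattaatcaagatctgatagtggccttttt
Rnase1: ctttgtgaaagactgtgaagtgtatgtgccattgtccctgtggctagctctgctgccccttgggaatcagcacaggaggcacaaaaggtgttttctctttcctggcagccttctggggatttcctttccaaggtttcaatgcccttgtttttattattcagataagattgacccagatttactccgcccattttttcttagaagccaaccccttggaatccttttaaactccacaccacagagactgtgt
CACCTG occurred in the promoters of 3 genes, namely Cel with 4 matches and Cpb1 and Pnliprp2 with 1 each, and in 17.2% of all 32851 promoters of that length. TTTCCC occurred in Cel and Cpa1, and in 21.9% of all promoters. TATAAA occurred in Amy1 and Pnlip, and in 12.4% of all. Cel alone among the 9 member promoters held both CACCTG and TTTCCC, and other forms of the E box were not searched. The matches describe letters in these windows and nothing about binding.

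The tissue label was set beside markers: 7 of 8 acinar markers, which include the enzyme genes Cpa1 and Cel, had a mean log2 signal above 10. Means over the markers of duct and salivary gland lay between 7.45 and 7.76 on every array. Stromal markers were above 10 in 3 of 6 cases, and their mean lay between 9.95 and 11.14. Ins2, the insulin gene used as a check of the STZ label, averaged 14.97 ± 0.23 (SD) in control sham and 13.25 ± 0.22 in control STZ arrays, with 13.88 ± 0.60 and 13.13 ± 0.38 in the low protein sham and STZ groups. Iapp, the amyloid peptide gene of beta cells, averaged 14.48 ± 0.32, 12.56 ± 0.23, 12.82 ± 0.83 and 12.48 ± 0.31 in the same order of groups. Array medians lay between 7.92 and 7.97 and array maxima between 15.85 and 15.91. Control STZ 1 and low protein sham 3 stood above the others in 18S ribosomal RNA signal, and low protein STZ 1 was the lowest array for all 10 enzyme probe sets. In whole-tissue RNA, fewer acinar cells and less RNA of a gene per acinar cell cannot be told apart.

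Signals of the enzyme genes were highest in control sham pancreas, next in control STZ and lowest in both low protein groups, on the deposited log2 scale. The order of the last 2 groups did not hold beyond their spread, since low protein STZ arrays lay on either side of the low protein sham arrays. The deposited values gave low protein means between 1.31-fold and 1.46-fold below control means in sham offspring, and cyclic loess scaling turned that direction in 9 of the 10 probe sets, all but Amy1. With limma and Benjamini-Hochberg adjustment over 33766 probe sets, 0 of 10 enzyme probe sets passed in any of the 7 comparisons.

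**Figure D1:**
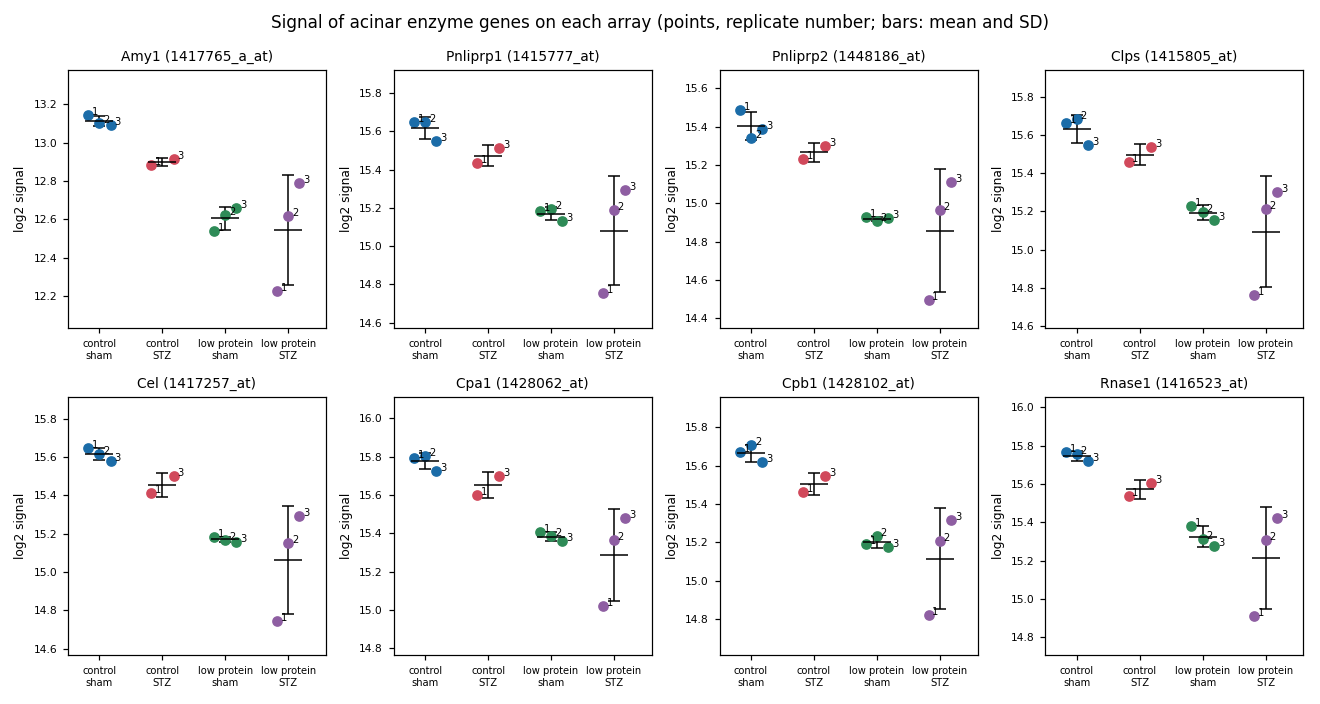
Log2 signal of the brightest probe set of each of 8 enzyme genes (vertical axis, as deposited) in the 4 groups. Points are arrays with their replicate number and bars are means with the SD (n = 3, 2, 3 and 3). Every control array lies above every low protein sham array, and low protein STZ 1 is the lowest point in all 8 panels; cyclic loess scaling turned the diet difference of all of them but Amy1 in sham offspring, and of Amy1 too in STZ offspring.

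Amy1, the amylase gene with a probe set of its own, read 13.14, 13.11 and 13.09 in control sham arrays 1 to 3 and 12.88 and 12.91 in control STZ arrays 1 and 3. It read 12.54, 12.62 and 12.66 in low protein sham and 12.23, 12.62 and 12.79 in low protein STZ arrays. All 5 control arrays lay above all 6 low protein arrays, and both control STZ arrays lay below the 3 control sham arrays. The low protein sham mean was lower than control sham by a log2 difference of -0.51 ± 0.12 (SE; 1.42-fold; adjusted p = 0.238), and by -0.17 after cyclic loess scaling. Averaged over injections the diet difference was -0.43 ± 0.09 (adjusted p = 0.0647; -0.036 after that scaling), and STZ minus sham in the control diet was -0.22 ± 0.13 (adjusted p = 1). Because mouse amylase genes form a cluster of close copies, a probe set named Amy1 may also read transcripts of its neighbours.

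The pancreatic amylase copies are not Amy1 but Amy2a1 to Amy2a5, which share 1 probe set that belongs to no single gene. This probe set averaged 15.44 over the arrays, against 12.78 for Amy1. It read 15.73, 15.79 and 15.67 in control sham and 15.30, 15.30 and 15.24 in low protein sham arrays, with no overlap. Its diet difference was -0.45 ± 0.10 in sham offspring (adjusted p = 0.238) and -0.39 ± 0.08 averaged over injections (adjusted p = 0.0634), against 0.17 and 0.32 after cyclic loess scaling. Another probe set, annotated to Amy1 together with Rnpc3, averaged 5.18 and fell under the filter on dim values.

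Among the fat-splitting enzymes, Pnliprp1 read 15.65, 15.65 and 15.55 in control sham, 15.43 and 15.51 in control STZ, 15.19, 15.19 and 15.13 in low protein sham, and 14.76, 15.19 and 15.30 in low protein STZ arrays. Its low protein arrays lay under all control arrays in both injection groups. The diet difference in sham offspring was -0.45 ± 0.12 (adjusted p = 0.247), and 0.17 after cyclic loess scaling. Averaged over injections it was -0.42 ± 0.09 (adjusted p = 0.0689), and 0.27 after that scaling.

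Pnliprp2 had the widest range over arrays when each of the 8 genes is taken by its brightest probe set. That probe set read 15.49, 15.34 and 15.39 in control sham, 15.23 and 15.30 in control STZ, 14.93, 14.91 and 14.92 in low protein sham, and 14.50, 14.96 and 15.11 in low protein STZ arrays. The diet difference in sham offspring was -0.49 ± 0.13 (adjusted p = 0.249; 0.10 after cyclic loess scaling). The 3 low protein sham arrays lay close together, with an SD of 0.011, and well under the lowest control array. The other probe set, of a kind whose probes may match further transcripts, read 15.37, 15.18 and 15.17 in control sham, 14.95 and 15.18 in control STZ, 14.76, 14.69 and 14.62 in low protein sham, and 14.23, 14.77 and 14.84 in low protein STZ arrays. Its diet difference in sham offspring was -0.55 ± 0.15 (adjusted p = 0.247; 0.014 after cyclic loess scaling). It was the only one of the 10 in which control STZ and control sham arrays overlapped. The gap between both probe sets of the gene stayed between 0.12 and 0.30 on all 11 arrays.

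Clps, which encodes colipase, read 15.66, 15.68 and 15.55 in control sham, 15.46 and 15.53 in control STZ, 15.23, 15.20 and 15.15 in low protein sham, and 14.76, 15.21 and 15.30 in low protein STZ arrays. Its second probe set kept within 0.04 to 0.14 of the first on every array. The diet differences in sham offspring were -0.44 ± 0.12 (adjusted p = 0.262) and -0.47 ± 0.12 (adjusted p = 0.238), and 0.18 and 0.13 after cyclic loess scaling. The control and low protein sham arrays did not overlap in either probe set.

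Cel, encoding the bile salt-dependent lipase, read 15.65, 15.62 and 15.58 in control sham, 15.41 and 15.50 in control STZ, 15.18, 15.17 and 15.16 in low protein sham, and 14.75, 15.15 and 15.29 in low protein STZ arrays. Its diet difference in sham offspring was -0.44 ± 0.12 (adjusted p = 0.246), against 0.17 after cyclic loess scaling. Averaged over injections it was -0.42 ± 0.09 (adjusted p = 0.0647), against 0.27.

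The carboxypeptidase genes differed by similar amounts. Cpa1 read 15.79, 15.81 and 15.73 in control sham, 15.60 and 15.70 in control STZ, 15.40, 15.38 and 15.36 in low protein sham, and 15.02, 15.36 and 15.48 in low protein STZ arrays. Its diet difference in sham offspring, -0.39 ± 0.10 (1.31-fold; adjusted p = 0.247), was the smallest of the 10, and read 0.24 after cyclic loess scaling. Cpa1 was also the enzyme nearest to the top of the scale: its distance to the highest signal of the array ranged from 0.08 to 0.83. Cpb1 read 15.67, 15.71 and 15.62 in control sham, 15.46 and 15.54 in control STZ, 15.19, 15.23 and 15.18 in low protein sham, and 14.82, 15.21 and 15.32 in low protein STZ arrays. The diet difference of Cpb1 averaged over injections, -0.43 ± 0.08, had the lowest adjusted p of the 10 (0.0627), and read 0.27 after cyclic loess scaling. In sham offspring its difference was -0.46 ± 0.11 (adjusted p = 0.238; 0.15 after that scaling).

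Rnase1, the secreted ribonuclease, read 15.77, 15.76 and 15.72 in control sham, 15.54 and 15.61 in control STZ, 15.38, 15.31 and 15.28 in low protein sham, and 14.91, 15.31 and 15.42 in low protein STZ arrays. Every control array lay above every low protein array. The diet difference was -0.42 ± 0.11 in sham offspring (adjusted p = 0.249) and -0.39 ± 0.08 averaged over injections (adjusted p = 0.0724), and after cyclic loess scaling 0.20 and 0.31.

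By comparison, the deposited values differed most with maternal diet, and these differences shrank or turned with the scaling. In sham offspring all 10 probe sets were lower in the low protein group, as were 55.7% of the 33766 tested, and 9 of the 10 differences were above 0 after cyclic loess scaling. The groups did not overlap for any of the 10, a pattern found in 9.42% of all. The median over 8 genes was -0.44, against -0.017 over all probe sets. None passed the adjusted threshold, beside 0% of all, and an unadjusted p under 0.05 with a lower mean was found for all 10 and for 6.64% of all. The 6 stromal markers tested were lower too, by a median of -0.35 as deposited and -0.25 after cyclic loess scaling, though 0 passed; their part in the enzyme difference was not tested.

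In STZ offspring the 10 differences ran from -0.46 to -0.35 (median -0.39, adjusted p from 0.434 to 0.506), and all 10 were above 0 after cyclic loess scaling. There 59.5% of all probe sets were lower in the low protein group, 14.7% without overlap, 6.62% at an unadjusted p under 0.05 and 0% past the adjusted threshold. Averaged over injections the differences ran from -0.50 to -0.38 (median -0.42, adjusted p from 0.0627 to 0.0726), and 9 of 10 were above 0 after cyclic loess scaling. Of the 10, 0 passed, beside 0% of all probe sets, and the smallest adjusted p of any probe set was 0.0624. Averaged in this way 59.7% of all were lower and 9.8% were so at an unadjusted p under 0.05, against 10 of 10 enzyme probe sets.

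Single arrays and the weight given to them changed the calls. Without low protein STZ 1, all 10 passed for diet averaged over injections (differences -0.41 to -0.31, limma adjusted p from 0.0199 to 0.0292), beside 349 of all 33766 probe sets. For diet in sham offspring all 10 passed too (limma adjusted p from 0.0179 to 0.0306), beside 304 of all. That array is in neither sham group, so the sham median stayed at -0.44, and only the spread estimated over all groups changed. The median for diet in STZ offspring was -0.23. Leaving out low protein STZ 3, the highest of that group, also gave 10 passing for the average (limma adjusted p from 0.0338 to 0.0372), beside 623 of all. Array weights gave 10 as well (limma adjusted p from 0.0298 to 0.0347), beside 853 of all. With only both sham groups in the fit, 4 of 10 passed for diet in sham offspring, beside 119 of all. These were Amy1, the brighter Pnliprp2 probe set, Cel and Cpb1 (each limma adjusted p = 0.0492). Centring each array on the 100 probe sets that were brightest on average left a median of -0.027 for diet averaged over injections. These 100 include 9 of the enzyme probe sets and many other acinar products. A value near 0 therefore follows in part from the choice of the set.

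**Figure D2:**
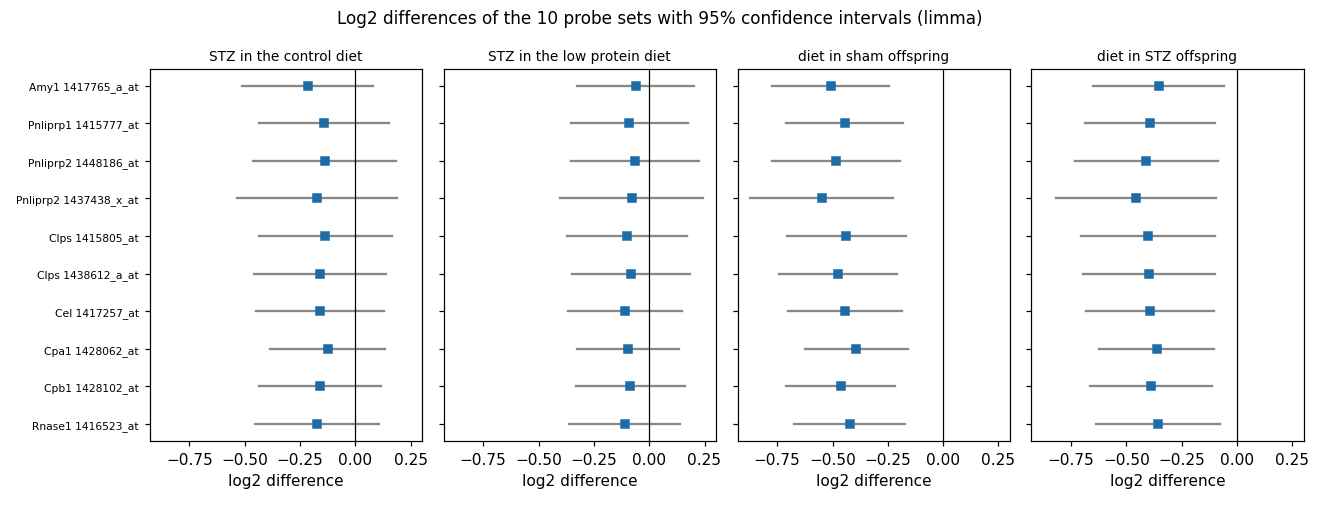
Log2 differences (horizontal axis) of the 10 probe sets in 4 comparisons, as squares with the 95% confidence interval of the limma fit; STZ panels show STZ minus sham and diet panels low protein minus control. The diet intervals lie below 0 before adjustment over all probe sets and the STZ intervals cross 0; with cyclic loess scaling 9 of 10 diet differences in sham offspring and all 10 in STZ offspring were above 0.

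On the deposited scale STZ made a smaller difference than diet, an order that was not tested and did not hold in every comparison after scaling. After cyclic loess scaling the median was 0.17 both for STZ in the low protein diet and for diet in sham offspring. It was 0.27 for diet averaged over injections and 0.073 for STZ averaged over diets. In the control diet all 10 probe sets were lower after STZ, by log2 differences of -0.22 to -0.13 (median -0.15, against 0.0030 over all probe sets), also after cyclic loess scaling (median -0.036), and 48.9% of all probe sets were lower. In 9 of the 10 the groups did not overlap, as in 7.78% of all. The adjusted p was 1 for each, with 0% of all passing, and the unadjusted p lay between 0.135 and 0.364, while 2.22% of all were lower at an unadjusted p under 0.05.

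In the low protein diet the STZ differences were -0.11 to -0.06 (median -0.09, adjusted p = 0.9999), and above 0 for all 10 after cyclic loess scaling. The groups overlapped for every enzyme probe set, whereas 4.47% of all were lower without overlap, 55.8% were lower, 1.63% at an unadjusted p under 0.05 and 0% past the adjusted threshold. Without low protein STZ 1 all 10 were above 0 (0.04 to 0.12). Averaged over diets the STZ differences were -0.14 to -0.10 (median -0.12; -0.17 without low protein STZ 3 and -0.047 without low protein STZ 1), and 9 of 10 were above 0 after cyclic loess scaling; 52.4% of all probe sets were lower, 2.16% at an unadjusted p under 0.05 and 0% past the threshold.

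The STZ effect in the low protein diet minus that in the control diet was 0.03 to 0.15 (median 0.06, adjusted p = 1), with 95% intervals that reached from -0.39 to 0.58 over the 10 probe sets. None passed, beside 0% of all, and of all probe sets 54.1% were below 0 and 2.12% so at an unadjusted p under 0.05. The median was -0.05 without low protein STZ 3 and 0.22 without low protein STZ 1, and after cyclic loess scaling the differences were 0.18 to 0.27 (median 0.21). The control sham arrays serve in both the STZ comparison of the control diet and the diet comparison of sham offspring, so those values are not independent.

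The enzyme probe sets sit near the top of the measured range. Of the 10, 9 were among the 100 brightest probe sets of the array, and Amy1, the exception, lay 2.76 to 3.63 below the highest signal of its array. The highest signal itself differed between diets by -0.0064 averaged over injections. Among the 100 brightest, 84 were lower and 16 higher in low protein arrays averaged over injections, as deposited. Leaving out the enzymes, the median diet difference averaged over injections was -0.00097 for probe sets with a mean signal up to 8, -0.16 between 10 and 12, -0.48 between 12 and 14 (497 probe sets), -0.59 between 14 and 15 (69) and -0.39 above 15 (34). The median SD within groups of these other probe sets was 0.19 between 10 and 12, 0.26 between 12 and 14, 0.23 between 14 and 15 and 0.14 above 15. Both the differences and the SD were thus smaller above 15 than just below it, and whether saturation compresses them was not tested. The enzyme differences of -0.50 to -0.38 lie in the range of other probe sets as bright as they are. Many of those above 15 were acinar products too, among them Ctrl, Prss2, Cela1, Sycn and Zg16. Of the 34, 31 were lower. Cryl1 (0.09), E2f5 (0.22) and Pik3cd (0.27) were higher, and Sf1, the brightest of all, differed by -0.0064. The part of brightness and of cell type in these differences was not tested. For STZ in the control diet the corresponding medians were -0.04, -0.09 and -0.15 in the upper 3 ranges.

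**Figure D3:**
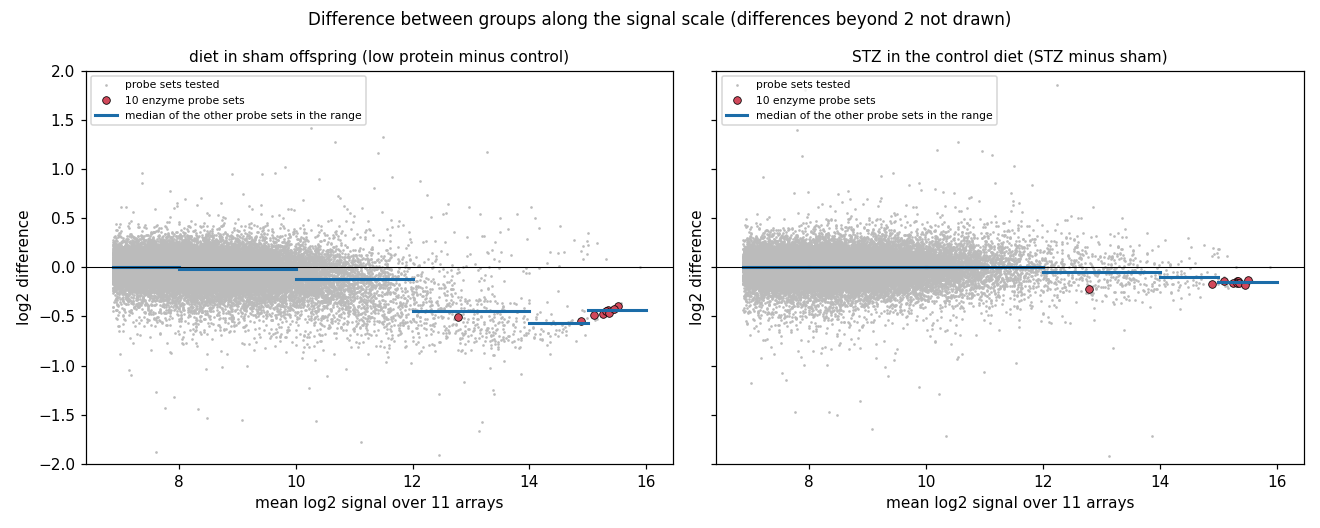
Log2 difference (vertical axis) against mean log2 signal over 11 arrays (horizontal axis) for all probe sets tested (grey), the 10 enzyme probe sets (red) and the median of the other probe sets in each signal range (blue). In sham offspring the blue medians run from 0.0037 for the dimmest range to -0.56 between 14 and 15 and -0.43 above 15. Enzyme values were -0.55 to -0.39 as deposited. Cyclic loess scaling, which fits such trends with signal, turned 9 of the 10 differences. It left the acinar serine proteases above 0 too (median 0.21), against -0.0035 over all probe sets.

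Hybridisation controls are foreign transcripts spiked into every sample, so the pancreas does not make them, and their group means were lower in both low protein groups. Single arrays overlapped in the mean of all controls, since control sham 1 (11.64) lay below low protein sham 3 (11.77) and low protein STZ 3 (11.67). For the Cre controls alone, every control array lay above every low protein array. For BioD, control sham 1 (12.91) lay just below low protein STZ 3 (12.92). The mean of all controls over 9 probe sets was 11.96 in control sham, 11.95 in control STZ, 11.57 in low protein sham and 11.39 in low protein STZ arrays, a diet difference of -0.48 averaged over injections. The Cre controls read 14.85 to 15.10 in control sham, 14.73 and 14.91 in control STZ, 14.32 to 14.41 in low protein sham and 13.85 to 14.59 in low protein STZ arrays, a diet difference of -0.60, and BioD differed by -0.63. Low protein STZ 1 was the lowest array for these controls too, at 11.13. Within control sham, array 1 was the lowest of 3 for the controls (11.64) and the highest for the enzyme mean, which only ran from 15.28 to 15.35. Over all 11 arrays both profiles correlated at 0.823. With the mean of these controls as a covariate, added after the data had been seen, the diet differences averaged over injections were -0.37 to -0.24 with adjusted p from 0.665 to 0.689. The part of labelling or hybridisation in the diet difference was not tested beyond these values.

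**Figure D4:**
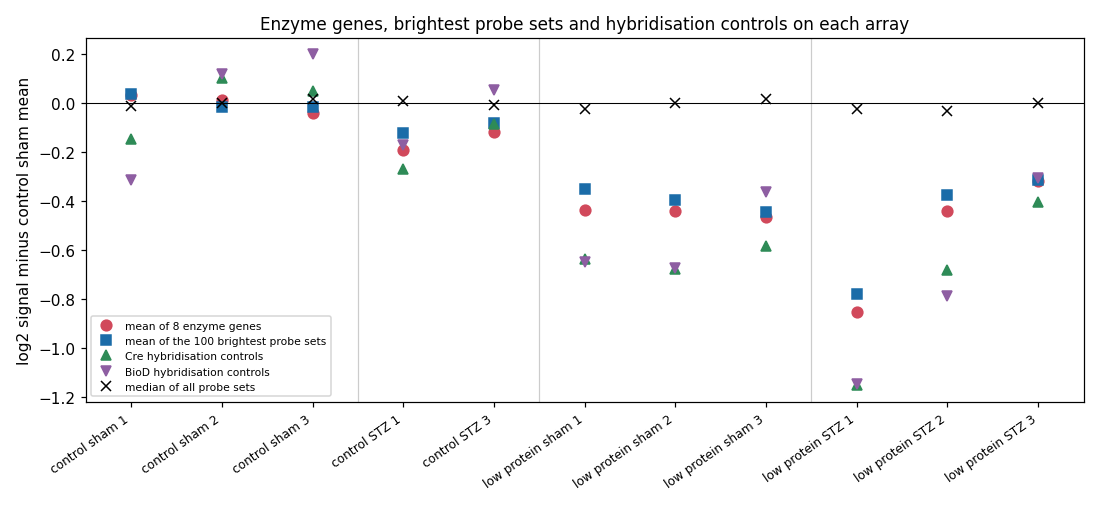
Log2 signal relative to the control sham mean (vertical axis) on each of the 11 arrays, for the mean of 8 enzyme genes, the mean of the 100 brightest probe sets, the Cre and BioD hybridisation controls and the array median. Enzymes, bright probe sets and added controls are all below 0 on every low protein array as deposited, while array medians stay between 7.92 and 7.97; cyclic loess scaling turned the averaged diet difference of all enzyme genes but Amy1, and in STZ offspring that of Amy1 too.

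**Figure D5:**
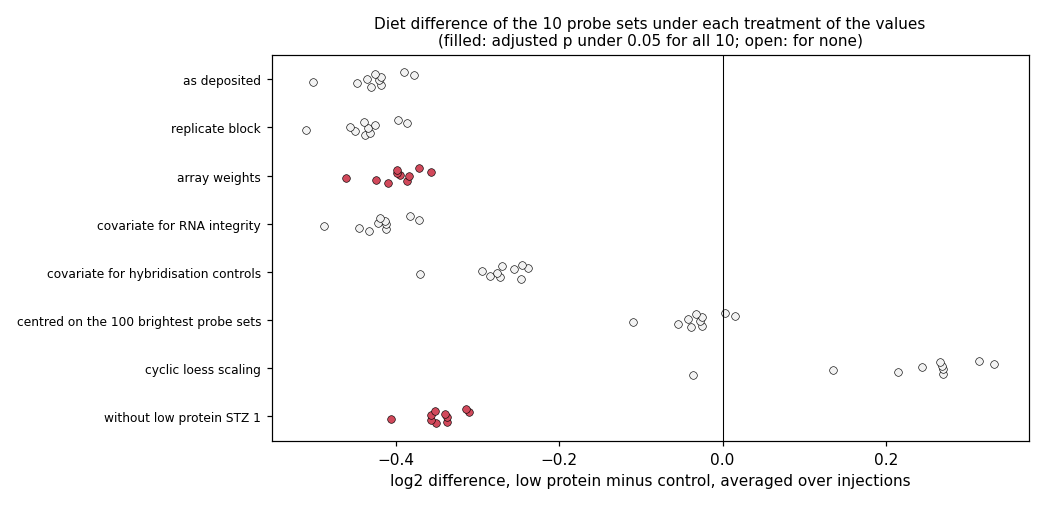
Diet difference averaged over injections (horizontal axis, log2) of the 10 enzyme probe sets (points) under 8 treatments of the values. Values run from -0.50 to -0.38 as deposited, from -0.37 to -0.24 with the hybridisation control covariate and from -0.04 to 0.33 after cyclic loess scaling; filled points had an adjusted p under 0.05.

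The 10 probe sets followed nearly one profile. Pearson correlations over the 11 arrays ranged from 0.959 to 0.999 for the 45 pairs (median 0.987), and these pairs share the arrays, their hybridisation and the signal range. The lowest was between Amy1 and the second probe set of Pnliprp2. The difference between Amy1 and the mean of the other 7 genes moved by at most 0.07 in the pairwise comparisons of groups. The profile of the hybridisation controls correlated with that of the enzymes at 0.823 over the same arrays. Of 15886 other genes, 189 had a correlation above 0.9 with the mean enzyme profile. The 5 most alike were Gp2 (0.997), which encodes the major membrane glycoprotein of zymogen granules, Prss2 (0.997), a trypsinogen, Ctrl (0.996), a chymotrypsin-like protease, 2210010C04Rik (0.996) and Ctrc (0.996), chymotrypsin C.

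Other products of the acinar cell, from lists drawn up for this tissue, were lower too in the deposited values, and cyclic loess scaling turned most of them; 0 genes passed in any list or comparison. Among serine proteases and their inhibitor, 10 of 15 were measured, and all 10 were lower in low protein arrays averaged over injections (median -0.38, beside -0.02 over all probe sets), against 2 of 10 after cyclic loess scaling (median 0.32). Prss3, a trypsinogen, differed by -0.73 ± 0.12 (-0.10 after that scaling). Spink1, the trypsin inhibitor that protects the gland, differed by -0.59 ± 0.11 (-0.0064 after it), and both had an adjusted p of 0.0624. Of 6 further enzymes 2 were measured: Pla2g1b, pancreatic phospholipase A2, differed by -0.50 ± 0.10 (adjusted p = 0.0647; 0.15 after scaling) and Dnase1, a secreted DNase, by 0.05 ± 0.11 (adjusted p = 0.904). All 10 zymogen granule proteins were lower (median -0.36), against 3 of 10 after cyclic loess scaling (median 0.12). Among them Zg16, a lectin-like granule protein, differed by -0.44 ± 0.09 (adjusted p = 0.0627; 0.25 after scaling) and Sycn, syncollin of the granule membrane, by -0.42 ± 0.08 (adjusted p = 0.0633; 0.28 after scaling).

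Genes that act upstream of the enzymes gave a less even picture. Of 7 acinar transcription factors tested, 6 were lower in low protein arrays (median -0.15), against 3 of 7 after cyclic loess scaling. Xbp1, which drives expansion of the secretory pathway, differed by -0.52 ± 0.12 (adjusted p = 0.0993; -0.07 after scaling). Ptf1a, the E-box subunit of PTF1, differed by -0.68 ± 0.22 (adjusted p = 0.212) and kept a difference of -0.43 after scaling. Rbpjl, its partner in mature acinar cells, differed by -0.08 ± 0.07 (adjusted p = 0.671). Of 7 receptors for secretagogues, 3 were lower (median 0.011), against 2 after scaling. Cckar, the receptor by which cholecystokinin stimulates enzyme release in rodents, differed by -0.42 ± 0.24 (adjusted p = 0.490; -0.04 after scaling), and Cckbr, the gastrin receptor, by 0.20 ± 0.11 for STZ in the control diet (adjusted p = 1). Among 19 relatives of the enzyme families that act outside acinar cells, 10 were lower, and 9 after scaling. Rnase4, a ribonuclease of the same family as Rnase1, differed by -0.56 ± 0.15 (adjusted p = 0.125; -0.12 after scaling), and Rnase2a by 0.44 ± 0.11 for diet in sham offspring (adjusted p = 0.238).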

How the data were processed

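Total RNA of 11 pancreas samples was measured on Affymetrix arrays. The log2 signals per probe set are those the authors deposited. Per the submitters' processing notes, the tools were RMA and Partek 6.5, with no role or order stated. The build is not given in the sources used here. The values were used without further scaling, since array medians differed little. Medians do not show the upper part of the scale, where the enzymes lie. Below the array maxima, that part was not aligned between arrays. The signal exceeded by 1% of probe sets ran from 11.94 (low protein STZ 1) to 12.83 (control sham 1). This signal differed between diets by -0.39 averaged over injections, while array medians differed by -0.011. The mean of the 100 brightest probe sets, which include 9 of the enzymes, ran from 14.37 (low protein STZ 1) to 15.19 (control sham 1). It differed between diets by -0.39 averaged over injections. The reason for this spread was not tested.

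Gene symbols came from GEO's platform annotation: of 45101 probe sets, 34958 carried 1 symbol, 932 several and 9211 none. After 64 array controls and probe sets at or under a mean of 6.87 (the 0.25 quantile) were left out, 33766 were fitted together (R 4.3.3; lmFit and eBayes of limma 3.58.1; 4 group means, two-sided, 7 comparisons), with Benjamini-Hochberg adjustment over all of them and a threshold of 0.05. The number of arrays limits the precision. The fit was tested on simulated data. Figures were drawn with matplotlib 3.10.9 under Python 3.11.15.

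The members and gene lists were chosen with earlier results of these data known. All probe sets of the members are named, with the 2 genes of smallest p in each list, the 5 genes most like the members' profile, and Ins2 and Iapp. Rbpjl is named because PTF1 contains it. Lists are described by counts and medians, with 1 probe set, the brightest, per gene. Alternatives were fits of only the groups compared, a replicate block, trend and robust moderation, array weights, 2 scalings, no filter, 1 probe set per gene, covariates for RNA integrity and, added after the data had been seen, hybridisation controls, and each array left out.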

Additional observations from a re-analysis of the deposited data

Results flagged for a closer look

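The 18S ribosomal RNA control probe sets, which enter no comparison, stood out on 2 arrays. Their mean over 3 probe sets was 10.40 on control STZ 1 and 9.08 on low protein sham 3, more than 1 log2 unit above the highest control sham array (7.56; lowest 7.06). On the same arrays the enzyme mean was 15.13 and 14.85, in each case the lowest of its group of 2 and 3 arrays. It was 15.20 on control STZ 3 and 14.88 on each of low protein sham 1 and 2. Whether 18S signal bears on the enzyme values was not tested.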

How the results depend on the processing

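Which enzyme probe sets passed depended on the treatment of the values. With only the 2 groups compared, 4 passed for diet in sham offspring (119 of all probe sets, against 0). With array weights 10 passed for diet averaged over injections (853 of all, against 0). Leaving out 1 array gave 0 to 10 for diet in sham offspring (10 without low protein STZ 1) and 0 to 10 averaged over injections (10 without low protein STZ 1 or 3). Over all probe sets the same omissions gave 0 to 304 passing in sham offspring (304 without low protein STZ 1) and 0 to 623 averaged over injections (623 without low protein STZ 3, 349 without low protein STZ 1 and 231 without low protein STZ 2). The median difference in STZ offspring ranged from -0.49 to -0.23 under the same omissions. Low protein STZ 1 is in neither sham group, so omitting it left the median difference in sham offspring at -0.44.

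After cyclic loess scaling the medians were -0.036 for STZ in the control diet, 0.17 for STZ in the low protein diet, 0.21 for the difference of STZ effects, 0.17 for diet in sham offspring, 0.37 for diet in STZ offspring, 0.073 for STZ averaged and 0.27 for diet averaged. Single differences in sham offspring turned to 0.17 (Pnliprp1), 0.10 and 0.014 (Pnliprp2), 0.18 and 0.13 (Clps), 0.17 (Cel), 0.24 (Cpa1), 0.15 (Cpb1) and 0.20 (Rnase1), and averaged over injections to 0.27, 0.21 and 0.13, 0.27 and 0.24, 0.27, 0.33, 0.27 and 0.31 in the same order. Amy1 kept its sign in sham offspring (-0.17) and averaged (-0.036), and turned to 0.10 in STZ offspring. After this scaling the bright acinar serine proteases lay above the rest too, with a median of 0.32 averaged over injections. Over all probe sets that median was -0.0060, so the scaled values still differed between bright acinar genes and the rest. Centred on the 100 brightest probe sets, the medians were -0.046 (sham), -0.0032 (STZ) and -0.027 (averaged). Of that set 9 are the enzymes and many others are acinar products, so values near 0 follow in part from the set. Cpa1 turned to 0.0065 in sham offspring and 0.015 averaged, and Rnase1 to 0.0028 averaged. That centring moved the median of all probe sets to 0.38 in sham offspring and 0.37 averaged, with 17463 (17384 higher) and 27315 (27126 higher) passing, 70 (69 higher) for diet in STZ offspring, 22 (9 higher) for STZ in the control diet, 12 for the difference of STZ effects and 10 for STZ averaged. With the hybridisation control covariate, chosen after seeing the data, the median in STZ offspring was -0.20. The cause of these shifts was not tested.

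The replicate block left 0 enzyme probe sets passing in every comparison and changed no call. Deviations of same-numbered arrays correlated at -0.32 to 0.28 (15 pairs) and of others at -0.46 to 0.39 (30 pairs), so the numbers were not taken as pairs. The number of arrays limits the precision.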

Other observations

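Markers of other cell types were given no test beyond the fit. The mean over 6 stromal markers ranged from 10.22 to 11.14 in control sham and from 9.95 to 10.46 in low protein sham arrays, so the groups overlapped. In the fit all 6 were lower with diet in sham offspring as deposited (median -0.35) and after cyclic loess scaling (median -0.25), against 2 of 6 when centred on the 100 brightest probe sets (median 0.050). As deposited 0 passed, with 2 at an unadjusted p under 0.05. These were Vim, an intermediate filament gene, at -0.93 ± 0.26 (limma adjusted p = 0.262), and Col3a1, a fibrillar collagen gene, at -0.85 ± 0.28 (limma adjusted p = 0.341). Averaged over injections all 6 were lower as deposited (median -0.27) and after cyclic loess scaling (median -0.16), against 3 of 6 when so centred (median 0.12). The mean over the B cell markers ranged from 8.00 to 8.22 in control sham and from 8.02 to 8.12 in low protein sham arrays. Their part in the enzyme differences was not tested.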
